A study of Lathyrus oleraceus with 6 samples.

Results

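In roots of pea seedlings, 28 of the 44756 loci in the count table had next to no reads in the control and were read in every library made after treatment with CO8-DA, a preparation of deacetylated chitooligosaccharides with a main chain length of about 8 sugar units. A locus was taken when its rounded counts summed to at most 3 over the control libraries and reached at least 10 in each CO8-DA library. The limits were met by 36 loci, and 8 of these were left out because the selection excluded them by identifier. The rule used the counts of both groups, so the difference in level between CO8-DA and control roots is a property of the choice and is given here as a description, without a test. What the rule did not use is the identity of the loci, their place in the genome, the behaviour of the loci beside them and the way their reads were shared with other loci.

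The RNA-seq experiment asked which genes of pea respond to deacetylated chitooligosaccharides. The treated roots came from seedlings of cultivar Frisson, wild type and 4 to 5 days old, kept for 24 h in 0.5x Jensen's medium with 1e-05 M CO8-DA, and the control roots from the same kind of seedlings kept for 24 h in that medium alone. There were 3 libraries in each group. The methods describe them as biological replicates, each of which combined several plants, so that differences between single plants are not seen.

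Plants recognise chitin and its fragments at the cell surface with receptor-like kinases that carry lysin motifs, and chitin fragments are classical elicitors of defence in legumes. Within minutes of recognition calcium enters the cell, reactive oxygen is made and MAP kinases are activated, and over the following hours defence genes are transcribed and, in legumes, isoflavonoid phytoalexins are built. Many genes of this programme are kept at a very low level in undisturbed tissue.

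The libraries held between 12315774 and 19534336 estimated counts, with a median of 15527374 in CO8-DA roots and 14484749 in control roots. Of the 21293 genes that passed the filter on low counts, 666 (3.13%) were called in the edgeR quasi-likelihood test, for which both an adjusted p under 0.05 and a log2 fold change of 1 or more in either direction were needed. Among them 561 (2.63%) were higher and 105 (0.493%) lower in CO8-DA roots. The tissue label could be checked only by words in the published descriptions, which cover 2192 loci chosen by their fold change. Among 13 loci picked by the words root cap, extensin or nitrate transporter, 2 are described as root cap/late embryogenesis-like proteins, a description that names a part of the root but not that alone. The better read of them, Psat7g224320, stood at 149 ± 15.5 CPM (counts scaled to a common library size) in CO8-DA roots and 56.4 ± 40.8 CPM in control roots (SD, n = 3 each). It stood at 9.95 CPM in control replicate 2. The other, Psat1g165640, was hardly read, at 0.895 ± 0.199 CPM in CO8-DA roots and 0.355 ± 0.502 CPM in control roots. Of the 13 loci, the nitrate transporter loci Psat4g061680 and Psat7g149120 were called lower (log2 fold changes -1.86 and -1.57, edgeR adjusted p = 0.00144 and 0.0165). Only the extensin-like Psat6g205760 was called higher (log2 fold change 1.29, edgeR adjusted p = 0.011). The 3 loci described as photosystem D1 proteins summed to 17.2, 8.73 and 4.66 CPM in CO8-DA replicates 1, 2 and 3 and to between 1.83 and 4.79 CPM in control roots, and their part in the results was not tested.

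A control level near 0 was common in the table, and a high level in treated roots at such a locus was not. Control counts summed to at most 3 at 19910 loci, of which 17105 also had no count in CO8-DA roots. At 57 of the 19910 loci the CO8-DA counts summed to at least 30. In the opposite direction, 19547 loci had CO8-DA counts that summed to at most 3, and at 14 of them the control counts reached a sum of 30. The rule applied the other way round found a single locus, Psat1g178840, which is described as a pectate lyase, an enzyme class that cuts pectin in the cell wall. It had 0, 1 and 0 counts in CO8-DA roots and 15, 80 and 48 counts in control roots. Silence in the control followed by reads after CO8-DA was therefore more frequent than its mirror image at every class of summed count from 4 upwards, as the plot of loci by summed count shows. These counts were not scaled for depth, and the median total was 15527374 in CO8-DA roots and 14484749 in control roots. The part of depth in these classes was not tested.

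**Figure D1:**
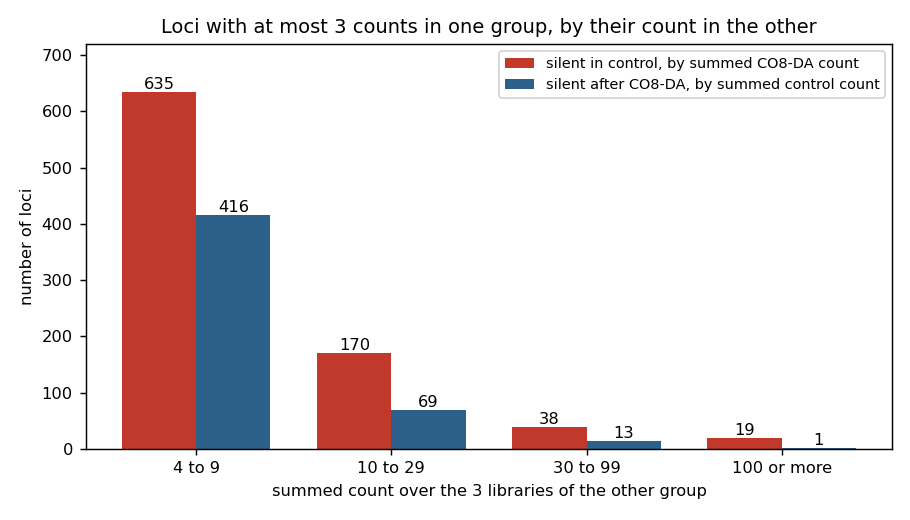
Number of loci with at most 3 summed counts in 1 group (vertical axis) by their summed count over the 3 libraries of the other group (horizontal axis). Counts are not scaled for depth. Red bars count loci silent in control roots and blue bars loci silent in CO8-DA roots, and the red bar is the taller in each of the 4 classes drawn, from 635 against 416 at 4 to 9 counts to 19 against 1 at 100 counts or more.

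The control counts of the 28 loci added up to 36 in all, against 3960 in CO8-DA roots. The sums were 1195, 1183 and 1582 counts in CO8-DA replicates 1, 2 and 3, and 13, 5 and 18 counts in control replicates 1, 2 and 3. On the scale of CPM the 28 loci together took 93.3, 74.3 and 80.9 in CO8-DA roots, and 0.882, 0.408 and 1.29 in control roots. In the control, 10 loci had no count in any library, 7 had a single count, 4 had 2 and 7 had 3. Control replicate 2, the shallowest of the 6 libraries, had no count at 24 of the 28, replicate 1 at 17 and replicate 3 at 16.

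None of the loci became abundant. Their mean level in CO8-DA roots lay between 0.75 and 10.7 CPM with a median of 1.91 CPM, and all 28 were below 14.2 CPM, the median of the tested genes. The ratio of the highest to the lowest CO8-DA library had a median of 1.7 and exceeded 2 at 10 loci, beside a median of 1.43 over the 8772 tested genes within the same range of levels. Replicate 1 was the highest of the CO8-DA libraries at 17 loci, replicate 2 at 4 and replicate 3 at 7, beside 31.7%, 37.3% and 31% of those genes. The limit of 10 counts stood at a higher CPM in replicate 1, the shallowest CO8-DA library, than in the others. Those genes were not held to that limit, so the rule itself can favour replicate 1 and nothing is read from the split. In these bulk roots, more cells of a kind and more RNA per cell cannot be told apart.

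The filter on low counts was passed by 27 of the 28 loci, and only through the CO8-DA libraries. All 27 were called higher, beside 2.63% of the tested genes, from which nothing can be read because the rule used this contrast. Psat0s32g0080 was not tested. Where the control had no count, a fold is given as a lower bound against 3 counts summed over the control libraries, a floor equal to 0.0732 CPM. These folds compare counts pooled over the libraries of a group and scaled by their pooled depth, so they differ slightly from ratios of the mean CPM. Where it had 1 to 3 counts, the ratio is given with its exact conditional 95% interval, which covers counting error only.

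**Figure D2:**
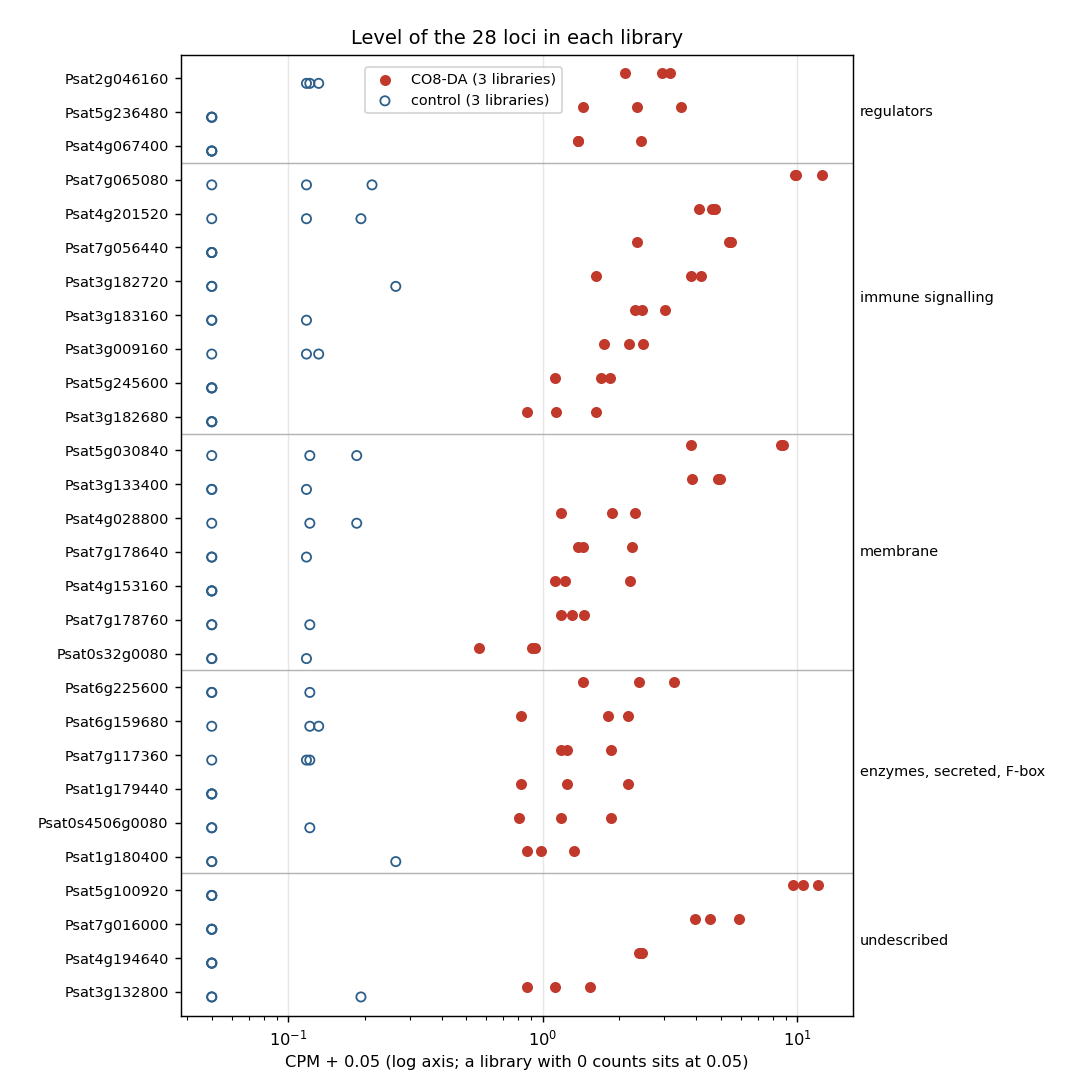
Level of each of the 28 loci in every library, in CPM plus 0.05 on a log axis, grouped by role as sorted by hand and ordered by mean within a group. Filled red points are the CO8-DA libraries and open blue points the control libraries; the mean CO8-DA levels run between 0.75 and 10.7 CPM, while most control points sit at 0 counts.

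Regulators of transcription formed the smallest group with a description, at 3 loci. Psat2g046160 is described as a PHD finger protein related to MALE MEIOCYTE DEATH, known in Arabidopsis for its part in male meiosis. It had 40, 46 and 40 counts in CO8-DA roots and 1, 1 and 1 in control roots, a ratio of 35.7 (11.9 to 175). Its counts in treated roots were nearly even and each control library held a single count. Psat5g236480 carries the best hit of a cysteine-tRNA ligase, yet its listed protein domain is WRKY, the DNA-binding domain of a large plant family of defence regulators. It had 44, 22 and 45 counts in CO8-DA roots and none in the control, at least 31.4-fold higher. Psat4g067400, a dehydration-responsive element-binding (DREB) protein of the AP2 class known in Arabidopsis for responses to drought and cold, had 17, 38 and 26 counts in CO8-DA roots and none in the control, at least 22.9-fold higher.

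A group of 8 loci was put together by hand from protein classes that are known in other plants for immune signalling or cell death, although most of their descriptions name neither. The highest of them was Psat7g065080, whose description is cut to an inactive poly and which carries an RST domain, the mark in Arabidopsis of a family with RADICAL-INDUCED CELL DEATH and its relatives. It had 160, 155 and 193 counts in CO8-DA roots and 1, 2 and 0 counts in control roots, with a mean of 10.7 ± 1.55 CPM in CO8-DA roots (SD, n = 3) and a ratio of 144 (48.9 to 700). Psat4g201520 is described as a BON1-associated protein, a class of membrane-bound C2 domain proteins that in Arabidopsis hold back cell death together with the copine BONZAI. It had 52, 75 and 89 counts in CO8-DA roots and 1, 0 and 2 counts in control roots, a ratio of 61.1 (20.6 to 299). Psat3g009160 is itself described as a copine, a calcium-dependent phospholipid-binding protein. It had 31, 34 and 33 counts in CO8-DA roots and 1, 1 and 0 counts in control roots, a ratio of 41.6 (11.2 to 348).

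Both sides of a partnership known from Arabidopsis, a copine and a BON1-associated protein, were thus among the 28. Psat5g245600, with the Toll-interleukin-resistance domain of many plant immune receptors, had 21, 17 and 35 counts in CO8-DA roots and none in the control, at least 20.7-fold higher. Psat7g056440, named after a gene that responds rapidly to the fungal effector Avr9 in tobacco cells with the tomato receptor Cf-9, had 70, 85 and 45 counts in CO8-DA roots and none in the control. Its CO8-DA level was 4.37 ± 1.79 CPM (SD, n = 3), and replicate 3 was the lowest.

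The other 3 loci of the group are described as cysteine/histidine-rich C1 domain proteins, members of which bind zinc and have been tied to cell death in pepper. All 3 lie on chromosome 3. Psat3g182720 had 53, 25 and 74 counts in CO8-DA roots and 0, 0 and 3 in control roots, and its neighbour Psat3g182680 had 20, 13 and 21 counts in CO8-DA roots and none in the control. Psat3g183160 had 38, 36 and 47 counts in CO8-DA roots and 1, 0 and 0 in control roots, a ratio of 103 (18.1 to 4092), whose interval is wide because it rests on 1 control count.

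The membrane and transport group held 7 loci. Psat5g030840, an SPFH/band 7 protein of the kind that scaffolds membrane domains, had 110, 60 and 171 counts in CO8-DA roots and 2, 0 and 1 counts in control roots. Its CO8-DA level, 7.03 ± 2.83 CPM (SD, n = 3), differed between the libraries, with replicate 2 the lowest. Psat3g133400, described only as a transmembrane protein and annotated with actin binding, had 49, 78 and 94 counts in CO8-DA roots and 1, 0 and 0 counts in control roots. This gave the highest of these ratios, 188 (33.3 to 7447), again on 1 count. Psat4g028800, a transmembrane protein, had 29, 29 and 22 counts in CO8-DA roots and 2, 0 and 1 in control roots, a ratio of 22.6 (7.48 to 112).

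A pair of amino acid transporters on chromosome 7 were both members. Psat7g178640 had 28, 22 and 26 counts in CO8-DA roots and 1, 0 and 0 in control roots, and Psat7g178760 had 18, 20 and 22 counts in CO8-DA roots and 0, 0 and 1 in control roots. Psat4g153160 is described as a proton pump interactor, named in Arabidopsis for a protein that binds the plasma membrane proton ATPase, and had 15, 17 and 42 counts in CO8-DA roots and none in the control. The lowest member of all, the transmembrane protein Psat0s32g0080, had 11, 14 and 10 counts in CO8-DA roots and 1, 0 and 0 in control roots.

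Enzymes, secreted proteins and F-box proteins made up 6 loci, none of which averaged more than 2.32 CPM in CO8-DA roots. Psat7g117360 is described as isoflavone synthase, the cytochrome P450 that opens the isoflavonoid branch in legumes and so stands at the entry to pisatin, the phytoalexin of pea. It had 23, 19 and 22 counts in CO8-DA roots and 1, 0 and 1 in control roots, a ratio of 27.2 (7.22 to 229). Psat6g159680, a cationic peroxidase of the secreted class that works on phenolics in the wall, had 27, 28 and 15 counts in CO8-DA roots and 0, 1 and 1 in control roots. Psat6g225600, whose listed domain is that of the Branch family of glycosyltransferases, had 30, 22 and 63 counts in CO8-DA roots and 0, 0 and 1 in control roots.

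Psat0s4506g0080 is a STIG1-like protein, a small secreted cysteine-rich protein known from the stigma of tobacco and petunia, and had 23, 12 and 22 counts in CO8-DA roots and 0, 0 and 1 in control roots. F-box proteins are the substrate-binding parts of ubiquitin ligases. Of the 2 here, Psat1g179440 had 27, 19 and 15 counts in CO8-DA roots and none in the control, at least 17.3-fold higher. Psat1g180400 had 12, 13 and 25 counts in CO8-DA roots and 0, 0 and 3 in control roots, which is the lowest ratio of the 18 loci with a control count, 14.2 (4.57 to 70.9).

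The remaining 4 loci have no description of function, and the largest bound of all was among them. Psat5g100920 had 123, 167 and 234 counts in CO8-DA roots and not a single count in the control, at least 148-fold higher at a CO8-DA level of 10.7 ± 1.2 CPM (SD, n = 3). Its annotation lists calmodulin binding and response to chitin. Psat7g016000, with a domain of unknown function and also annotated with response to chitin, had 75, 62 and 88 counts in CO8-DA roots and none in the control, at least 63.7-fold higher. These were the only members with that annotation, which 66 of the 886 loci of the published list carry.

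Psat4g194640 had 30, 38 and 47 counts in CO8-DA roots and none in the control. Its level, 2.38 ± 0.0329 CPM (SD, n = 3), was the most even of the 28 across the CO8-DA libraries. Psat3g132800, for which the annotation gives no hit, had 19, 17 and 16 counts in CO8-DA roots and 0, 0 and 2 in control roots.

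Around the limits the choice turned on single reads. The 7 loci with 3 control counts were just inside, and so was Psat0s32g0080 with 10 counts in its lowest CO8-DA library. Just outside were the exocyst subunit Psat0s952g0040, with 58, 32 and 41 counts in CO8-DA roots and 3, 1 and 0 in control roots, and the BON1-associated protein Psat4g152600, with 21, 36 and 49 counts in CO8-DA roots and 0, 1 and 3 in control roots. The TIR protein Psat1g206680, with 9, 10 and 15 counts in CO8-DA roots and 0, 0 and 1 in control roots, missed the limit of 10 by 1 count.

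RSEM splits a read that matches more than 1 locus, and a locus that shares reads shows up by an estimate that is not a whole number. Estimates differed from a whole number by 0.005 or more in at least 1 library at 16 of the 28 loci (57.1%), beside 29.1% of the tested genes, and were whole at the other 12. The 12 loci with whole estimates summed to 50.6, 44.7 and 45.1 CPM in CO8-DA roots and to 0.475, 0.326 and 0.5 CPM in control roots. In these the levels of both groups carry no sign of divided reads. They include Psat7g065080, Psat5g100920, Psat4g201520, Psat3g009160 and Psat3g133400.

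A search chosen after the counts were seen asked whether the estimates of a divided locus and of a nearby or related locus add up to whole numbers, within 0.011, in all 6 libraries. It tried pairs only, and it passed over Psat5g236480, whose estimate was divided in 1 CO8-DA library alone. Larger sets were missed in this way. The cationic peroxidases Psat6g159680, Psat6g159320 and Psat6g159360 add up to whole numbers only as a set of 3, as do the isoflavone synthase loci described below. A partner was found for 10 of the 16, in which case the sum of the pair does not depend on how the reads were divided. The amino acid transporters Psat7g178640 and Psat7g178760 are such a pair, with 46, 42 and 48 counts together in CO8-DA roots and 1, 0 and 1 in control roots, a ratio of 57.8 (15.7 to 482). So are the C1 domain loci Psat3g182680 and Psat3g182720, with 73, 38 and 95 counts together in CO8-DA roots and 0, 0 and 3 in control roots, a ratio of 58.3 (19.7 to 285). Psat3g183160 shared reads with Psat3g182240, a further C1 domain locus, and the pair had 45, 43 and 55 counts in CO8-DA roots and 1, 0 and 0 in control roots.

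These pairs stayed near silence in the control as sums, and 5 other members were paired with a locus that was read in the control. Psat4g067400 and its neighbour Psat4g067440, both DREB proteins, had 41, 76 and 72 counts together in CO8-DA roots and 4, 3 and 0 in control roots, 22.6-fold higher. The F-box loci Psat1g180400 and Psat1g180360 had 38, 46 and 43 counts together in CO8-DA roots and 4, 9 and 8 in control roots, 5.11-fold higher. Psat4g153160 shared reads with Psat5g272680, a proton pump interactor on another chromosome that alone had 418, 543 and 920 counts in CO8-DA roots and 42, 17 and 36 in control roots. The pair was 17.4-fold higher in CO8-DA roots, and nearly all of its counts belong to Psat5g272680.

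The last 2 pairs join a member to a neighbour without a description that was expressed at a similar level in both groups. Psat7g056440 and Psat7g056400 together had 281, 328 and 309 counts in CO8-DA roots and 207, 177 and 196 in control roots, 1.37-fold higher. The neighbour alone stood at 15.1 ± 1.49 CPM in CO8-DA roots and 14.2 ± 0.244 CPM in control roots (SD, n = 3 each), a log2 fold change of 0.09 with an edgeR adjusted p of 0.758. Psat4g194640 and Psat4g194600 together had 157, 234 and 266 counts in CO8-DA roots and 124, 113 and 106 in control roots, 1.61-fold higher. In both pairs every estimate was whole in the control and divided in CO8-DA roots, so that for these members the fold depends on how RSEM assigned the shared reads, while the added reads of the pair do not.

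The members were spread over all 7 chromosomes, with 2, 1, 6, 5, 4, 2 and 6 loci on chromosomes 1 to 7 and 2 on unplaced scaffolds. Psat3g182680 and Psat3g182720 were the only members next to each other in the order of identifiers, which is assumed to follow the chromosome. The nearest locus on each side was then examined, whose counts the rule did not use. Where a neighbour shared reads with its member, its estimate is tied to that of the member. These neighbours came to 53 loci, of which 18 had no count in any library (34%, beside 36.4% of all loci), 6 had too few counts and 29 were tested.

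Among the 29 tested neighbours, 7 were called higher in CO8-DA roots (24.1%, beside 2.63% of all tested genes) and none was called lower. At an unadjusted p under 0.05, 12 were higher and 0 lower in edgeR, and DESeq2 called 8 higher (beside 2.94% of its tested genes) and 0 lower. The 22 neighbours that were not called had log2 fold changes between -0.39 and 2.68 with a median of 0.10, against -0.01 over all tested genes. The called neighbours lay beside 6 members, and 1 of them, the DREB locus Psat4g067440, is a partner that shared reads with its member. Between 2 and 5 loci away, 7 of 87 tested loci were called higher (8.05%) and 0 lower, and the plot of neighbours by place shows both sets. Of the tested neighbours, 3 of the 11 with whole estimates were called and 4 of the 18 whose estimates carry divided reads, as defined above.

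**Figure D3:**
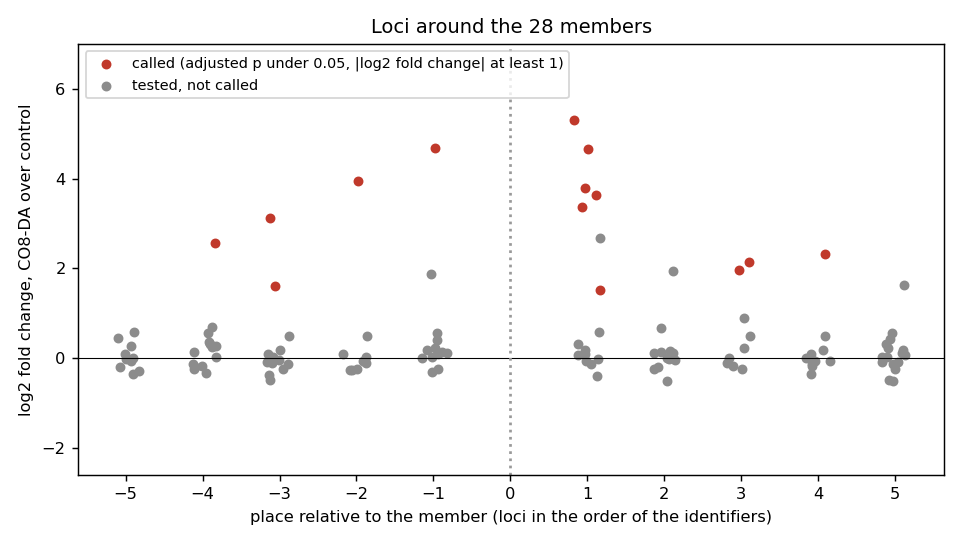
Log2 fold change (vertical axis, CO8-DA over control) of each tested locus within 5 places of a member, by its place in the order of identifiers (horizontal axis, member at 0, points spread sideways for legibility). Red points are called loci, 7 at a distance of 1 and 7 at 2 to 5, all above 0; grey points were tested and not called.

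The clearest run of responsive loci lay on chromosome 4 around Psat4g201520. On one side of this BON1-associated protein, Psat4g201480, with the same description, had 53, 55 and 49 counts in CO8-DA roots and 0, 1 and 4 in control roots, a log2 fold change of 4.68 ± 0.63 (SE, edgeR adjusted p = 0.00623). On the other side, Psat4g201600, a C2 domain protein, had 68, 51 and 136 counts in CO8-DA roots and 2, 1 and 2 in control roots, a log2 fold change of 5.31 ± 0.48 (SE, edgeR adjusted p = 0.00122). All 3 loci of the run were at or below 4 counts in each control library and at or above 49 in each CO8-DA library.

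Psat0s32g0120, next to the lowest member Psat0s32g0080, was far better read, with 239, 371 and 309 counts in CO8-DA roots and 12, 6 and 13 in control roots. Its log2 fold change was 4.66 ± 0.27 (SE, edgeR adjusted p = 0.000236), and both loci had divided estimates. Psat3g133440, beside the transmembrane protein Psat3g133400, had 110, 137 and 194 counts in CO8-DA roots and 13, 1 and 13 in control roots, a log2 fold change of 3.78 ± 0.47 (SE, edgeR adjusted p = 0.00454). Control replicate 2 was the lowest control library there too.

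Psat2g046200, described as the outward-rectifying potassium channel SKOR, which in Arabidopsis loads potassium into the xylem, lies beside the PHD finger locus Psat2g046160. It had 83, 119 and 129 counts in CO8-DA roots and 32, 32 and 34 in control roots, a log2 fold change of 1.51 ± 0.19 (SE, edgeR adjusted p = 0.00488). The channel was thus expressed in the control where its neighbour was nearly silent.

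The calls of the last 2 neighbours depended on single libraries. Psat4g067440, the DREB partner named above, had 24, 38 and 46 counts in CO8-DA roots and 4, 3 and 0 in control roots, a log2 fold change of 3.63 ± 0.59 (SE, edgeR adjusted p = 0.014), and lost its call without CO8-DA replicate 2 or 3. Psat3g132840, a transmembrane protein beside the undescribed Psat3g132800, had 72, 59 and 99 counts in CO8-DA roots and 9, 0 and 10 in control roots, a log2 fold change of 3.37 ± 0.60 (SE, edgeR adjusted p = 0.0201). It lost its call without any one of the CO8-DA libraries or without control replicate 3, with an edgeR adjusted p of up to 0.0845.

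Of the neighbours that share a family with their member and were not called, 3 are given here. In each, all CO8-DA libraries were above all control libraries, as in 15.1% of all tested genes. The copine Psat3g009200, next to the copine Psat3g009160, had 21, 38 and 68 counts in CO8-DA roots and 12, 4 and 0 in control roots, a log2 fold change of 2.68 ± 0.73 (SE, edgeR adjusted p = 0.0892), while DESeq2 gave an adjusted p of 0.0082. The F-box locus Psat1g180360 had 26, 33 and 18 counts in CO8-DA roots and 4, 9 and 5 in control roots (log2 fold change 1.87 ± 0.51, SE, edgeR adjusted p = 0.0897). The WRKY locus Psat5g236440, next to the WRKY member Psat5g236480, had 17, 10 and 14 counts in CO8-DA roots and 4, 0 and 1 in control roots and was too low to be tested. Psat0s32g0040, which like its neighbour Psat0s32g0080 is described only as a transmembrane protein, had 6, 3 and 0 counts in CO8-DA roots and none in the control. It was not tested, and its groups overlapped at 0. The locus beside the C1 domain pair, Psat3g182640, stood at 348 ± 54.9 CPM in CO8-DA roots and 345 ± 52.4 CPM in control roots (SD, n = 3 each), with a log2 fold change of 0.02 and an edgeR adjusted p of 0.971.

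**Figure D4:**
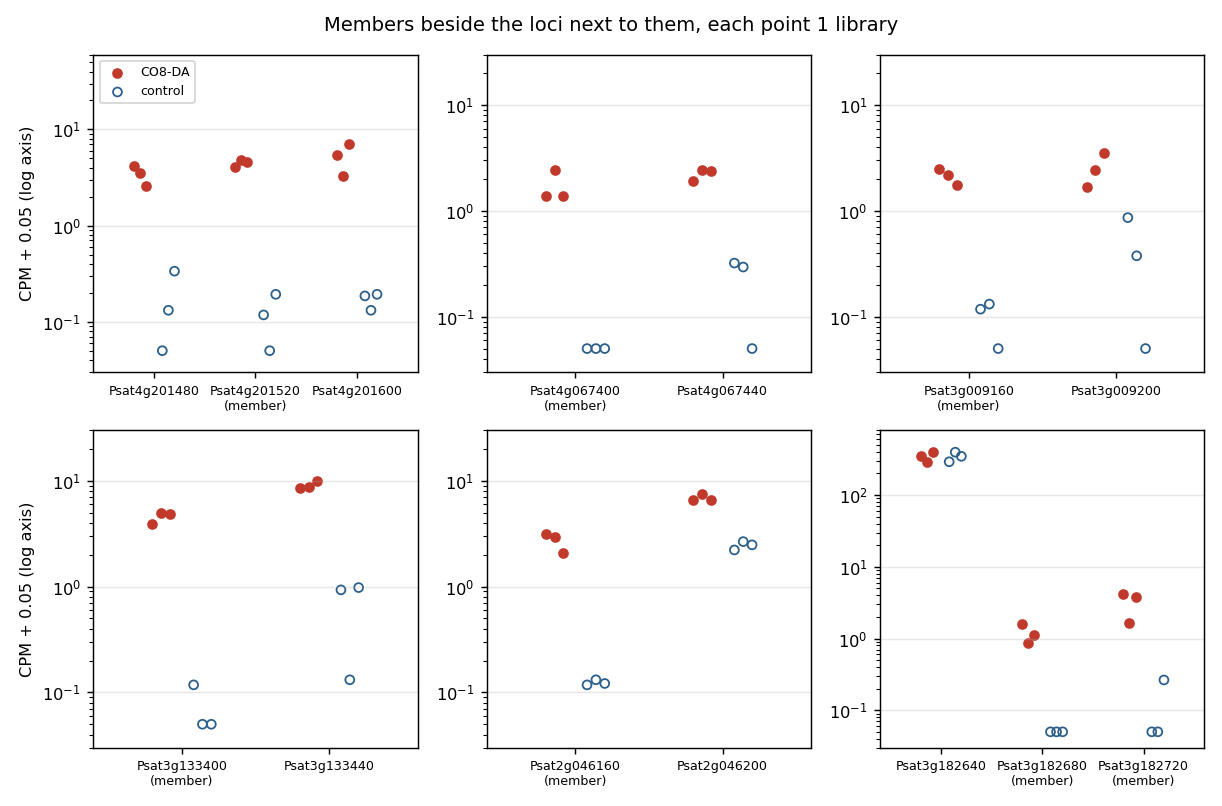
Level of 6 sets of members and adjacent loci in every library, in CPM plus 0.05 on a log axis, with filled red points for CO8-DA and open blue points for control libraries. In the BON1-associated run all 3 loci are low in the control and high after CO8-DA. Psat3g182640 sits near 348 CPM in CO8-DA roots and 345 CPM in control roots, beside 2 C1 domain loci that are nearly silent in the control only.

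For most families the published annotation holds further loci, which it lists because of their own fold change, so their direction is no independent evidence. Among the 46 such loci examined, at most 5 a family, 25 were called higher in CO8-DA roots, 2 lower, 4 were tested and not called and 15 had too few counts. Those called higher include the peroxidases Psat6g099960 and Psat2g068760, whose estimates were identical in every library, so their calls are not separate. All 3 other BON1-associated loci were called higher in CO8-DA roots. Besides Psat4g201480 these were Psat4g152600, with a log2 fold change of 4.35 ± 0.62 (SE, edgeR adjusted p = 0.00839), and Psat4g152560, which had 216, 320 and 309 counts in CO8-DA roots and 21, 7 and 26 in control roots. Of the 5 other loci named after Avr9/Cf-9, 3 were called higher, and 2 were too low to test. The largest log2 fold change of these was 3.97 ± 0.42 at Psat1g029320 (SE, edgeR adjusted p = 0.0023). Both other proton pump interactors were called higher, with log2 fold changes of 4.04 ± 0.27 for Psat5g272680 and 2.00 ± 0.21 for Psat5g272720 (SE, edgeR adjusted p = 0.000294 and 0.00219).

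Among the 5 WRKY loci taken, 3 were called higher and the other 2 were too low to test. Isoflavone synthase showed where most of the reads of a family lay. The other 2 loci described as this enzyme were far better read than the member Psat7g117360. Psat7g117880 had 1068, 887 and 1737 counts in CO8-DA roots and 212, 9 and 157 in control roots, a log2 fold change of 3.09 ± 0.67 (SE, edgeR adjusted p = 0.0434), a call that was lost without any one of the CO8-DA libraries or without control replicate 3. Psat7g118080 had 817, 819 and 801 counts in CO8-DA roots and 193, 0 and 157 in control roots and was not called (log2 fold change 2.66 ± 0.81, SE, edgeR adjusted p = 0.126). All 3 loci had divided estimates, which add up to whole numbers over the 3, within 0.011, in all 6 libraries. The near silence of the member in the control, and its ratio, thus depend on how RSEM assigned the reads shared with the other 2. Control replicate 2 was far below the other control libraries at both of the well-read ones.

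Relatives of members were also called lower. The RD22-like protein Psat7g141640, which shares only the words dehydration-responsive with the DREB member, had 364, 395 and 309 counts in CO8-DA roots and 612, 690 and 733 in control roots, a log2 fold change of -1.13 ± 0.22 (SE, edgeR adjusted p = 0.0285), and lost its call without CO8-DA replicate 2 or 3 or control replicate 2 or 3. The C1 domain locus Psat6g097280 had 32, 36 and 51 counts in CO8-DA roots and 99, 51 and 73 in control roots, a log2 fold change of -1.13 ± 0.24 (SE, edgeR adjusted p = 0.0401), with whole estimates. Of the fits that left out a library, it was still called only in that without control replicate 2. The C1 domain description thus covered the 3 members on chromosome 3 and a locus on chromosome 6 that was lower after CO8-DA. It also covered Psat3g182240 on chromosome 3, with 7, 7 and 8 counts in CO8-DA roots and none in the control, which was too low to be tested in edgeR.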

How the data were processed

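Per the methods, poly(A) RNA of pea roots was sequenced from 6 directional libraries. The authors trimmed reads with Trimmomatic 0.39, aligned them with bowtie2 2.4.4 to the pea genome v1a and deposited RSEM 1.3.1 expected counts per locus, without normalization. RSEM divides reads between similar loci. Groups came from the sample titles.

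Rounded counts went into edgeR 4.0.16 under R 4.3.3 (TMM, filterByExpr, glmQLFit, glmQLFTest, two-sided), with Benjamini-Hochberg adjustment over 21293 genes. The prior degrees of freedom were 3.86. CPM are on the TMM scale. Each SE was derived as the absolute log2 fold change divided by the square root of the quasi-likelihood F statistic. The test was checked on simulated data. Intervals and floors cover counting error only, since reads carry no molecular identifiers. With 3 libraries against 3, an exact permutation test cannot go below 0.1.

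Members and lists were chosen with earlier results of these data known. All members are named, per library. Other loci are named where they neighbour a member and were called or share its family word. Up to 5 related loci a family were taken from the published annotation. Exceptions are the loci at the limits, in the tissue check or paired or grouped by read sums, chosen after their values were seen. Descriptions come from that annotation. No sequence of genome v1a was used here. Alternatives were DESeq2 1.42.0, other scalings, filters, limits, blocks and each library left out.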

Additional observations from a re-analysis of the deposited data

How the results depend on the processing

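The number of loci that met the rule moved with its limits. It was 10 with no control count allowed, 47 with up to 6, 50 with at least 5 counts in each CO8-DA library and 16 with at least 20, against 28. It was 26 on unrounded counts, which dropped Psat0s32g0080 and Psat5g030840, 29 on thinned counts, and 30 to 53 with 1 library left out, the highest without control replicate 1 or 3. The loci silent after CO8-DA were 0, 2, 6 and 0 under the same limits, against 1, and 1 to 7 with a library left out. Called members ranged over 21 to 27, called neighbours over 5 to 9 and all called genes over 371 to 943 in the fits without a library, the last lowest without CO8-DA replicate 2 and highest without control replicate 1. Counting 5 loci on each side gave 14 called neighbours, and neighbours with whole estimates alone gave 3. The summed CO8-DA level of the members, 82.8 CPM, was 72.1 CPM without the highest member, 46.8 CPM over members with whole estimates and 77.6 to 87.1 CPM without a library. DESeq2 called 891 genes.

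Same-numbered libraries correlated at 0.226, 0.0449 and 0.151 in their deviations from the group means. Each CO8-DA library correlated best with the control library of its own number, and correlations between other numbers reached 0.0869. With 3 libraries a group, these values cannot settle whether the numbers pair the libraries. The main fit was unpaired. With the replicate block, 706 genes, 26 members and 7 neighbours were called, and with a block by library number 1094 genes, 26 members and 8 neighbours. Of 432 values of 36 tested neighbours and relatives under 12 settings, 366 stayed on the same side of the threshold, 59 fell below it, 7 passed it and 0 reversed. Depth limits the choice, since a locus at 0 counts in all 3 control libraries may still be expressed below the floor of 0.0732 CPM, which is 3 counts over their pooled depth.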
